A study of Mus musculus with 6 samples.

Results

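Viral infection of a cell sets off production of interferons, and interferons in turn switch on a large set of genes that block viral growth or show viral peptides to T cells. A list of 50 such genes was followed in mouse airway epithelial cells treated with TGF-β1, a growth factor that is released in injured and tumour-bearing lung and that is known for its effects on immune responses. The 50 genes were 34 antiviral genes, 6 interferon-inducible GTPases and 10 genes of peptide presentation on MHC class I. They were listed by their role in the pathway, with earlier results of these data already known, and were looked up on the array by RefSeq accession, among 22910 genes that could be identified there. A probe matched 48 of them, and 42 passed the filter on dim probes and were tested among 14345 genes. Of those 42, 29 were antiviral, 4 were GTPases and 9 belonged to class I presentation.

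The cells were 2D mouse airway organoids (2D-MAOs), epithelial cells from the airways of C57BL/6 mice that had been expanded as organoids and then spread as a flat layer in 6-well plates. The medium of all 6 cultures lacked noggin, a BMP inhibitor, and A83-01, a TGF-β receptor inhibitor, from day 3. In 3 cultures TGF-β1 was added on that day, 3 cultures received none and served as controls, and all were collected on day 7. The cultures are described as biological replicates, and the microarray methods give no concentration of TGF-β1. Total RNA of each culture was labelled with Cy3 and hybridised to 1 Agilent 8×60K array.

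Signals are given as the base 2 logarithm of spot brightness after quantile normalisation, which gives all arrays the same distribution of signals. A difference of 1 on this scale is a 2-fold difference. Brightness depends on the probe as well as on the RNA, so a gene was compared only with itself across arrays. A log2 fold change is the mean of the 3 TGF-β1 arrays minus the mean of the 3 control arrays, ± the standard error of the limma fit, and adjusted p-values were computed over all 14345 genes. A gene with an adjusted p under 0.05 and a change of at least 2-fold is called a differentially expressed gene (DEG). The exact permutation test of 3 against 3 arrays cannot give a two-sided p below 0.1, so no such p is listed for single genes.

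Between 55.0% and 59.0% of the probes were well above background on each array. The arrays of TGF-β1 replicates 1 and 2 lay close together, with a Euclidean distance of 32.3 over the log2 signals of all tested genes. The array of TGF-β1 replicate 3 stood apart, at 61.1 and 62.3 from these and at 54.4 to 60.9 from the controls, so calls of members and pathway genes that change without it are given both ways. Control replicate 3 lay 47.7 and 48.1 from the other controls, which were 38.7 apart. Replicate 3 of both groups lay in slide row 2 and the other 4 arrays in slide row 1. Without TGF-β1 replicate 3, slide row 2 holds a control array only, so slide row and treatment are partly mixed in that fit. Of 17 epithelial markers 14 were above background, and Muc5ac, Muc5b and Sftpc, which mark goblet and type 2 alveolar cells, were not. The pan-leukocyte gene Ptprc was well above background on none of the arrays, as were 8 more of the 15 leukocyte markers. Csf1r, Itgam, Cd68, Cd3e and Fcer1g, also leukocyte markers, were well above background on all 6 arrays. In a mixed culture, fewer cells of a type and less RNA per cell cannot be told apart.

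As background, cells detect viral RNA through sensors such as RIG-I (Ddx58) and MDA5 (Ifih1), which lead to the secretion of type I and type III interferons. These bind receptors on the same and on neighbouring cells, and the Janus kinases at the receptor activate a transcription factor complex that includes STAT2 and IRF9. That complex binds the interferon-stimulated response element (ISRE) of its target genes. Interferon gamma, made by lymphocytes, acts mainly through another element, the gamma-activated site (GAS). Airway epithelium is the first tissue met by inhaled viruses, and it is known for its response to type I and type III interferons. MHC class I molecules show peptides that the immunoproteasome cuts, that the TAP transporter carries into the endoplasmic reticulum and that tapasin helps to load.

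Most members differed little between treated and control cultures, as did most genes on the array. In 35 of the 42 tested members the log2 fold change was smaller than 0.5 in size, and in Ifit3 alone it reached 1. Among all 14345 genes it was smaller than 0.5 in 12120 and reached 1 in 546. Of the 42 members 0 were DEGs, against 198 DEGs (1.38%) among all genes, and at an unadjusted p under 0.05 in limma, 6 members were higher and 4 lower. The unpaired t-test that the study's general statistics name also called 0 members at a change of 2-fold, with or without adjustment. Igtp, an immunity-related GTPase, was the only member with an adjusted p under 0.05, and it was higher (background 1.63%). No member was lower at that threshold (background 0.404%). The shares at an unadjusted p under 0.05 were 14.3% of members higher and 9.52% lower, beside 11.4% and 10.7% of all genes, so that the number of calls among members was close to that of genes in general. The TGF-β1 signals lay above all control signals in 9 members and below them in 5, which is 21.4% and 11.9% of members and 12.9% and 13.5% of all genes.

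**Figure D1:**
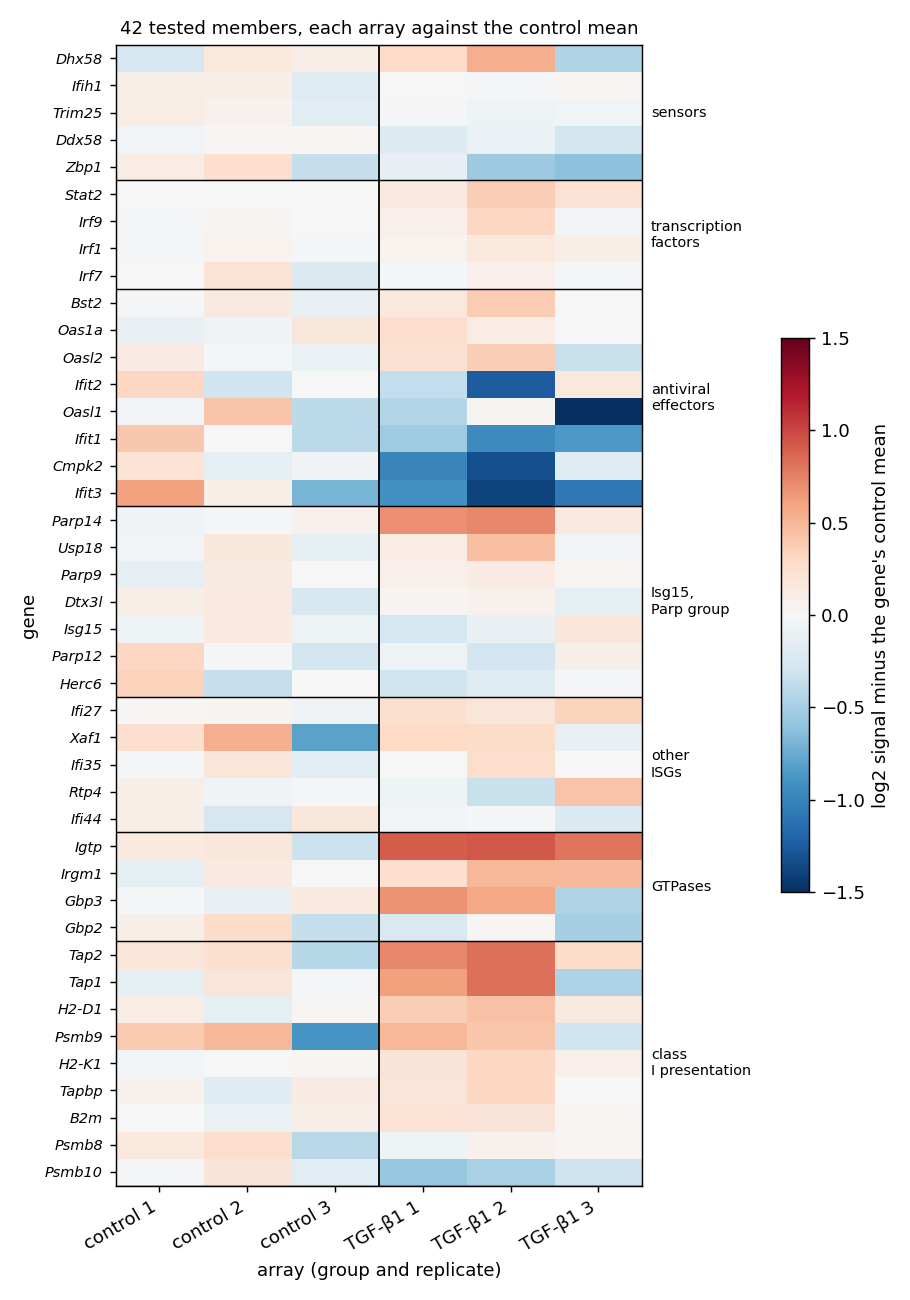
Log2 signal of each of the 42 tested members (rows, grouped by role) on each of the 6 arrays (columns), after subtracting the mean of the 3 control arrays of that gene. Red is above and blue below the control mean, and colours end at 1.5 in either direction. Ifit1, Ifit3 and Cmpk2 were below every control signal on all 3 TGF-β1 arrays and Igtp was above, while most other genes stayed pale or varied among arrays of 1 group.

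The sensors of viral nucleic acid had a median log2 fold change of -0.049, and none of the 5 passed the test or had an unadjusted p under 0.05. Ddx58 encodes RIG-I, which recognises viral RNA ends. Its log2 signal was 12.65, 12.71 and 12.73 on the control arrays and 12.50, 12.60 and 12.43 on the TGF-β1 arrays. All 3 TGF-β1 signals lay below the control signals, by a small margin (log2 fold change -0.19 ± 0.10, adjusted p = 0.307). Ifih1, the gene of MDA5, a sensor of long double-stranded RNA, gave 9.12, 9.13 and 8.83 on the control arrays and 9.03, 9.00 and 9.05 on the TGF-β1 arrays. These signals overlapped (log2 fold change 0.0021 ± 0.12, adjusted p = 0.993). Dhx58 encodes LGP2, a helper of these sensors, and gave 4.45, 4.86 and 4.80 on the control arrays and 4.99, 5.25 and 4.26 on the TGF-β1 arrays. Its signal was higher on 2 TGF-β1 arrays and lowest of all on the remaining one, TGF-β1 replicate 3 (log2 fold change 0.13 ± 0.26, adjusted p = 0.79), and without that array the log2 fold change was 0.42 (adjusted p 0.135). Zbp1, a sensor of Z-form nucleic acid that can start cell death, gave 5.84, 5.97 and 5.36 on the control arrays and 5.61, 5.18 and 5.11 on the TGF-β1 arrays. The groups overlapped at the weakest control array (log2 fold change -0.42 ± 0.21, adjusted p = 0.274). Trim25, a ubiquitin ligase that activates RIG-I, gave 14.26, 14.22 and 13.98 on the control arrays and 14.13, 14.07 and 14.11 on the TGF-β1 arrays, with no separation of the groups (log2 fold change -0.049 ± 0.11, adjusted p = 0.815). A dimmer probe of Trim25 had a log2 fold change of -0.42.

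Of the 4 transcription factors none passed the test or had an unadjusted p under 0.05. Stat2 and Irf9 encode parts of the complex that binds the ISRE. Stat2 gave 11.19, 11.21 and 11.19 on the control arrays and 11.34, 11.57 and 11.42 on the TGF-β1 arrays. The 3 control signals were nearly equal, and the TGF-β1 signals all lay above them, without passing the test (log2 fold change 0.24 ± 0.11, adjusted p = 0.232). Irf9 gave 11.06, 11.13 and 11.08 on the control arrays and 11.17, 11.41 and 11.05 on the TGF-β1 arrays, with overlap (log2 fold change 0.12 ± 0.12, adjusted p = 0.586). Irf1 and Irf7 encode factors that are themselves induced by interferon and amplify the response. Irf1 gave 12.88, 12.96 and 12.89 on the control arrays and 12.97, 13.08 and 13.01 on the TGF-β1 arrays on its brighter probe. The groups did not overlap there, but they differed by little (log2 fold change 0.11 ± 0.10, adjusted p = 0.528), and the dimmer probe of the gene had a log2 fold change of -0.36. Irf7 gave 10.07, 10.29 and 9.85 on the control arrays and 10.05, 10.15 and 10.04 on the TGF-β1 arrays on its brighter probe (log2 fold change 0.0091 ± 0.14, adjusted p = 0.974) and a log2 fold change of -0.50 on its dimmer one. The direction for Irf1 and Irf7 therefore depended on the probe.

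The antiviral effectors, proteins that act on viral RNA or viral particles, had the lowest median of the member lists. Of 13 effectors 8 were tested, 5 of them with a negative log2 fold change, and the median was -0.60. None had an adjusted p under 0.05, and 3 were lower at an unadjusted p under 0.05, where 10.7% of all genes were lower. The median lay between the values of Ifit2 and Oasl1, which both overlapped between groups. The median was -0.52 under scaling to the 75th percentile, -0.27 with normexp background correction and -0.47 without TGF-β1 replicate 3. It was -0.60 within slide row 1 and -0.20 between the 2 arrays of slide row 2, where the median of the sensors was lower, at -0.25. Ifit1, Ifit2 and Ifit3 encode tetratricopeptide proteins that bind foreign RNA and hinder its translation. Ifit1 gave 13.04, 12.64 and 12.24 on the control arrays and 12.10, 11.68 and 11.78 on the TGF-β1 arrays. All TGF-β1 signals were below all control signals, and the mean was 1.72-fold lower, but the difference did not pass the test (log2 fold change -0.78 ± 0.22, adjusted p = 0.13). Ifit3 gave 11.72, 11.20 and 10.41 on the control arrays and 10.20, 9.71 and 10.04 on the TGF-β1 arrays. The controls themselves spread over more than the width of a 2-fold difference, with control replicate 3 close to the treated arrays (log2 fold change -1.12 ± 0.32, adjusted p = 0.132). Without control replicate 3 the log2 fold change of Ifit3 was -1.47 with an adjusted p of 0.0441. Ifit2, which lies next to Ifit3 on the chromosome, gave 9.91, 9.31 and 9.60 on the control arrays and 9.24, 8.36 and 9.77 on the TGF-β1 arrays. TGF-β1 replicates 1 and 2 were below the controls and replicate 3 lay within their range (log2 fold change -0.48 ± 0.35, adjusted p = 0.434). Without replicate 3 the log2 fold change was -0.81 (adjusted p 0.113), and in slide row 2 it was 0.17.

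Cmpk2, a mitochondrial nucleotide kinase gene, gave 7.74, 7.39 and 7.48 on the control arrays and 6.55, 6.22 and 7.36 on the TGF-β1 arrays. TGF-β1 replicates 1 and 2 were far below the controls and replicate 3 was just below them (log2 fold change -0.83 ± 0.29, adjusted p = 0.172). Without TGF-β1 replicate 3 Cmpk2 was a DEG, with a log2 fold change of -1.16 and an adjusted p of 0.0129, and in slide row 2 the log2 fold change was -0.12. With normexp it was -0.55. Its neighbour on the chromosome is Rsad2, the gene of viperin, which was well above background on 0 control arrays and on 2 TGF-β1 arrays and was not tested. The remaining tested effectors overlapped between groups. Oas1a, a synthetase that activates RNase L, gave 5.38, 5.44 and 5.66 on the control arrays and 5.76, 5.60 and 5.49 on the TGF-β1 arrays. The related Oasl2 gave 6.79, 6.65 and 6.57 on the control arrays and 6.90, 7.05 and 6.34 on the TGF-β1 arrays. Bst2, which tethers budding virus to the cell surface, gave 11.97, 12.14 and 11.88 on the control arrays and 12.16, 12.38 and 12.00 on the TGF-β1 arrays. These 3 genes had log2 fold changes of 0.12, 0.092 and 0.18. Oasl1 was dim, with 4.71, 5.18 and 4.36 on the control arrays and 4.31, 4.79 and 2.98 on the TGF-β1 arrays, and was well above background on 5 of 6 arrays (log2 fold change -0.72 ± 0.46, adjusted p = 0.376). Its log2 fold change was -0.17 with normexp and -0.20 without TGF-β1 replicate 3. Oas2 and Oas3 were well above background on none of the arrays. No probe accession was paired with Mx1 or Mx2, so that these are not analysed here.

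**Figure D2:**
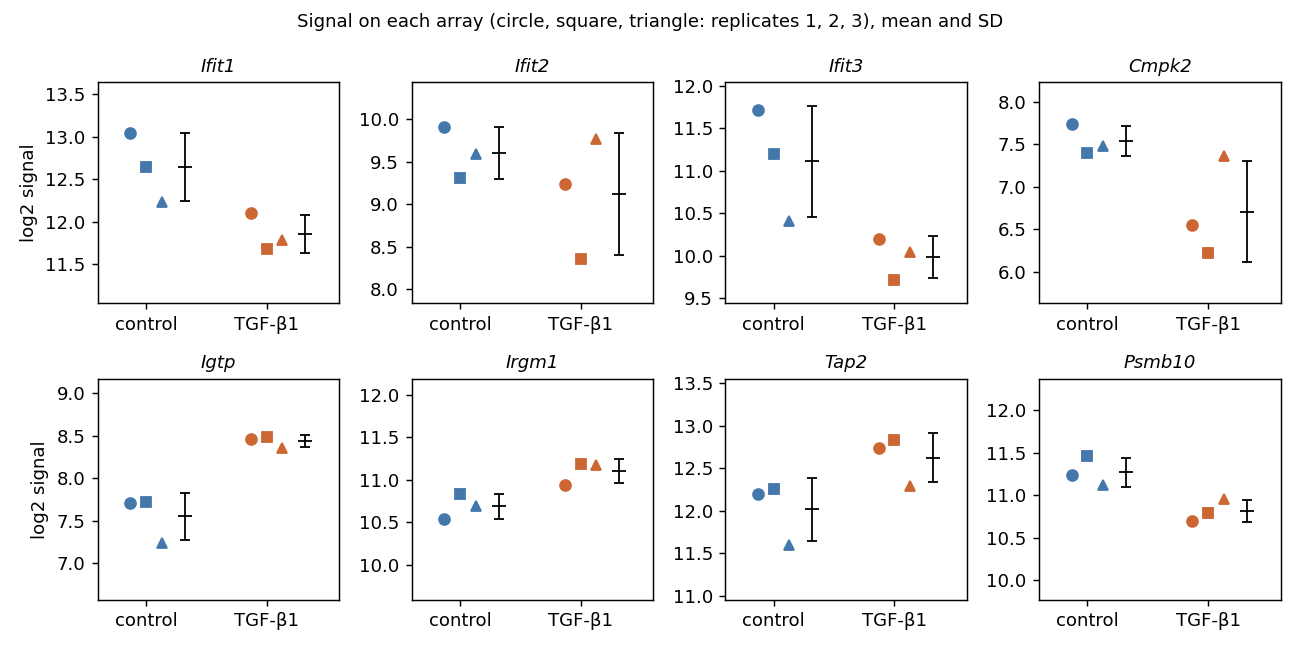
Log2 signal (vertical axes, all spanning the same range) of 8 members on each control and TGF-β1 array, with the mean and SD of 3 arrays beside the points. Ifit1, Ifit3, Cmpk2 and Psmb10 lay lower on every TGF-β1 array and Igtp, Irgm1 and Tap2 lay higher, whereas Ifit2 overlapped, and of these only Igtp passed the test.

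Sequences upstream of these genes are shown because the ISRE and the GAS are the elements through which interferon acts, and because the genes at the ends of the range can be compared by them. They come from RefSeq on the mouse build GRCm38.p6. Promoter windows of 300 bases, 250 before and 50 after the start of the gene, were found for 37 members, some with several starts (42 windows), and were searched on both strands for the letters GAAANNGAA (ISRE) and TTCNNNGAA (GAS). Both patterns end in the same 3 letters, so that matches can overlap. Each line gives the 160 bases before the start, with matches to either pattern in capitals. Ifit3 lies at chr19:34583369-34583528 (+), Ifit1 at chr19:34640729-34640888 (+), Isg15 at chr4:156200819-156200978 (-), Igtp at chr11:58199396-58199555 (+) and B2m at chr2:122147527-122147686 (+).
Ifit3: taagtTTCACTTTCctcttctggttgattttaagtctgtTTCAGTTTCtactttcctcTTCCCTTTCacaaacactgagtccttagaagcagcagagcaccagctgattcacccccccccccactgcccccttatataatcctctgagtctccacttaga
Ifit1: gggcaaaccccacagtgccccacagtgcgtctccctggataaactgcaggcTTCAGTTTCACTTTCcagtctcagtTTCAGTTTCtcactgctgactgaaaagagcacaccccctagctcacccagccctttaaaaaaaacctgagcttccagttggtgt
Isg15: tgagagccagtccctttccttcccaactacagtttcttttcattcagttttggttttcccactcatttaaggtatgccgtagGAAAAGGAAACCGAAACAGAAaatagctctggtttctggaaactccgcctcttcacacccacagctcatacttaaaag
Igtp: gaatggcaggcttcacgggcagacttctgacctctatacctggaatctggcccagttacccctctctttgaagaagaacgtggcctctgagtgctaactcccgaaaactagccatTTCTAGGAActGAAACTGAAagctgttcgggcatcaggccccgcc
B2m: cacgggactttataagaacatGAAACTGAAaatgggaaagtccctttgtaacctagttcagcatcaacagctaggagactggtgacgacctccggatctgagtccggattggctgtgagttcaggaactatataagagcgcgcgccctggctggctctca

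The upstream regions of Ifit3 and Ifit1 each held 3 matches to the ISRE letters, which for Ifit1 began at positions -109, -103 and -84, counted from the start of the gene. Isg15 also held 3, at -78, -72 and -66, and its log2 fold change was -0.067. Igtp, the member that was higher, held 1 ISRE match at -34 and 1 GAS match at -45. Over all windows the ISRE letters occurred in 18 of 42 member windows (42.9%) and in 8.56% of 32851 windows of all genes, and the GAS letters in 19.0% and 8.30%. By gene, 12 of 24 antiviral members, 5 of 5 GTPases and 1 of 8 class I members (B2m) held an ISRE match. Among the members lower on all TGF-β1 arrays 3 of 5 held one (Ifit1, Ifit3 and Ddx58), and among those higher on all TGF-β1 arrays 3 of the 6 with a window did (Igtp, Irgm1 and Stat2). A match is a description of letters in these windows and not a test of binding.

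The Isg15 and Parp list holds the ubiquitin-like modifier Isg15, the enzymes that attach or remove it, and ADP-ribosyltransferases of the interferon response. The median log2 fold change was -0.0095. Isg15 gave 8.44, 8.64 and 8.42 on the control arrays and 8.24, 8.38 and 8.68 on the TGF-β1 arrays (log2 fold change -0.067 ± 0.15, adjusted p = 0.801). Usp18, which removes Isg15 from proteins and restrains interferon signalling, gave 10.28, 10.50 and 10.19 on the control arrays and 10.44, 10.77 and 10.27 on the TGF-β1 arrays (log2 fold change 0.17 ± 0.16, adjusted p = 0.539). Both overlapped between groups. Herc6, the mouse ligase for Isg15, gave 6.29, 5.60 and 5.94 on the control arrays and 5.64, 5.76 and 5.93 on the TGF-β1 arrays (log2 fold change -0.17 ± 0.19, adjusted p = 0.61). Parp14, an ADP-ribosyltransferase, was the highest of the list with 9.88, 9.92 and 9.99 on the control arrays and 10.62, 10.65 and 10.08 on the TGF-β1 arrays. All TGF-β1 signals lay above the controls, TGF-β1 replicate 3 only just, and the test was not passed (log2 fold change 0.52 ± 0.17, adjusted p = 0.161). Without TGF-β1 replicate 3 its log2 fold change was 0.70 (adjusted p 0.0141). Parp9 and Dtx3l, which form a complex and lie beside Parp14 on the chromosome, overlapped between groups, as did Parp12. Parp9 gave 9.98, 10.25 and 10.11 on the control arrays and 10.19, 10.23 and 10.14 on the TGF-β1 arrays (log2 fold change 0.073 ± 0.11, adjusted p = 0.714). For Dtx3l the signals were 9.88, 9.93 and 9.55 on the control arrays and 9.82, 9.84 and 9.66 on the TGF-β1 arrays (log2 fold change -0.0095 ± 0.14, adjusted p = 0.974). Those of Parp12 were 9.82, 9.48 and 9.24 on the control arrays and 9.44, 9.23 and 9.60 on the TGF-β1 arrays (log2 fold change -0.092 ± 0.18, adjusted p = 0.773).

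Of 5 further interferon-stimulated genes none passed the test, and their median was 0.093. Ifi27, the gene of a small membrane protein, gave 13.48, 13.51 and 13.42 on the control arrays and 13.72, 13.66 and 13.80 on the TGF-β1 arrays. The groups did not overlap on this probe (log2 fold change 0.25 ± 0.10, adjusted p = 0.206), and under the 75th percentile the log2 fold change was 0.056. The dimmer probe of Ifi27 had a log2 fold change of -0.045, with overlap. Ifi35 gave 12.21, 12.42 and 12.08 on the control arrays and 12.25, 12.50 and 12.24 on the TGF-β1 arrays. For Ifi44 the signals were 8.94, 8.61 and 9.03 on the control arrays and 8.82, 8.83 and 8.64 on the TGF-β1 arrays. Rtp4, a chaperone of membrane receptors, gave 8.24, 8.09 and 8.12 on the control arrays and 8.08, 7.81 and 8.58 on the TGF-β1 arrays. All 3 overlapped between groups, with log2 fold changes of 0.093, -0.10 and 0.0083. The dimmer probe of Ifi35 had a log2 fold change of -0.11, so that its sign depended on the probe. Xaf1, a gene that promotes cell death, gave 6.72, 7.01 and 5.67 on the control arrays and 6.77, 6.74 and 6.36 on the TGF-β1 arrays. Its control arrays differed more among themselves than the groups did (log2 fold change 0.15 ± 0.34, adjusted p = 0.805).

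The interferon-inducible GTPases, which attack the membranes around intracellular pathogens, had the highest median of the member lists, 0.34 over 4 tested genes. In slide row 2 alone it was 0.17, below the 0.39 of the further interferon-stimulated genes. Igtp (Irgm3) gave 7.70, 7.72 and 7.23 on the control arrays and 8.46, 8.49 and 8.36 on the TGF-β1 arrays. The treated arrays lay close together and all above the controls, with a mean 1.85-fold higher (log2 fold change 0.88 ± 0.16, adjusted p = 0.0465). Within slide row 1 the log2 fold change was 0.76, and between the 2 arrays of slide row 2 it was 1.13. That call was lost when control replicate 1 or 2 or TGF-β1 replicate 1 or 2 was left out (adjusted p between 0.107 and 0.186), with the replicate number as a block (adjusted p 0.0755), and without the filter on dim probes, where the log2 fold change of Igtp had an adjusted p of 0.117. It was also lost in the methods' t-test after adjustment over all genes (adjusted p 0.197). Irgm1, which regulates the same family, gave 10.54, 10.84 and 10.69 on the control arrays and 10.94, 11.19 and 11.18 on the TGF-β1 arrays. The order was the same, with a smaller difference (log2 fold change 0.41 ± 0.13, adjusted p = 0.152). Gbp3, a guanylate-binding protein, gave 5.03, 4.95 and 5.21 on the control arrays and 5.73, 5.63 and 4.61 on the TGF-β1 arrays. It was higher on TGF-β1 replicates 1 and 2 and lowest of all on replicate 3 (log2 fold change 0.27 ± 0.30, adjusted p = 0.607), and without replicate 3 its log2 fold change was 0.62 (adjusted p 0.0285). Gbp2 gave 9.34, 9.53 and 8.89 on the control arrays and 9.03, 9.28 and 8.75 on the TGF-β1 arrays and overlapped (log2 fold change -0.23 ± 0.21, adjusted p = 0.522). Gbp7 was well above background on 0 control and 2 TGF-β1 arrays, and Iigp1 on none, so neither was tested.

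Of 9 tested genes of class I presentation 8 had a positive log2 fold change, with a median of 0.19. None had an adjusted p under 0.05. At an unadjusted p under 0.05, 2 were higher and 1 lower, where 11.4% and 10.7% of all genes were. The scaling of the arrays mattered for them. When arrays were instead scaled to their 75th percentile, the median was 0.043 and the split was 6 positive and 3 negative. For the 29 antiviral members the split was 16 positive and 13 negative by quantiles and 13 and 16 by the 75th percentile, and for all 42 members 27 and 15 against 22 and 20. Among all genes 45.8% were positive by quantiles and 38.3% by the 75th percentile. No direction is therefore given for the class I genes as a group.

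The heavy chains H2-K1 and H2-D1 present the peptide. H2-K1 gave 16.49, 16.53 and 16.56 on the control arrays and 16.71, 16.84 and 16.59 on the TGF-β1 arrays. For H2-D1 the signals were 15.02, 14.78 and 14.93 on the control arrays and 15.28, 15.35 and 15.04 on the TGF-β1 arrays. In both genes every TGF-β1 signal lay above the controls, with log2 fold changes of 0.19 (adjusted p 0.326) and 0.32 (adjusted p 0.216). Under the 75th percentile these were 0.043 and 0.042. The 2 genes and their H2-Q and H2-T relatives are alike in sequence, so that a probe may bind several of them. B2m, the light chain shared by class I molecules, gave 15.85, 15.74 and 15.93 on the control arrays and 16.05, 16.03 and 15.86 on the TGF-β1 arrays (log2 fold change 0.14 ± 0.11, adjusted p = 0.457), and its log2 fold change turned to -0.13 under the 75th percentile. Tapbp, the gene of tapasin, gave 15.80, 15.55 and 15.86 on the control arrays and 15.92, 16.05 and 15.73 on the TGF-β1 arrays (log2 fold change 0.17 ± 0.14, adjusted p = 0.489). Under the 75th percentile it was -0.10, and on a dimmer probe of Tapbp -0.072.

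TAP1 and TAP2 form the peptide transporter. Tap1 gave 9.68, 10.01 and 9.80 on the control arrays and 10.44, 10.66 and 9.37 on the TGF-β1 arrays. It was higher on TGF-β1 replicates 1 and 2 and lowest of all on replicate 3 (log2 fold change 0.33 ± 0.33, adjusted p = 0.566), and without replicate 3 the log2 fold change was 0.72 (adjusted p 0.0291). Tap2 gave 12.20, 12.26 and 11.60 on the control arrays and 12.74, 12.84 and 12.29 on the TGF-β1 arrays. All TGF-β1 signals lay above the controls, TGF-β1 replicate 3 by little (log2 fold change 0.61 ± 0.23, adjusted p = 0.191). With the slide row as a block the log2 fold change of Tap2 had an adjusted p of 0.0456. The immunoproteasome subunits Psmb8 and Psmb9 lie between and beside the Tap genes on the chromosome. Psmb8 gave 7.04, 7.14 and 6.46 on the control arrays and 6.81, 6.95 and 6.91 on the TGF-β1 arrays. For Psmb9 the signals were 6.24, 6.34 and 4.96 on the control arrays and 6.35, 6.27 and 5.54 on the TGF-β1 arrays. Both were lowest on control replicate 3 and overlapped, with log2 fold changes of 0.01 and 0.21. The remaining subunit, Psmb10, is encoded elsewhere. Psmb10 gave 11.24, 11.46 and 11.12 on the control arrays and 10.70, 10.79 and 10.96 on the TGF-β1 arrays. It was the only class I gene with all TGF-β1 signals below the controls (log2 fold change -0.45 ± 0.13, adjusted p = 0.136). The standard subunits Psmb5, Psmb6 and Psmb7, which these replace, had log2 fold changes of -0.13, 0.015 and -0.15. Nlrc5, the transcriptional activator of class I genes, was well above background on 1 control array and on 0 TGF-β1 arrays and was not tested.

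**Figure D3:**
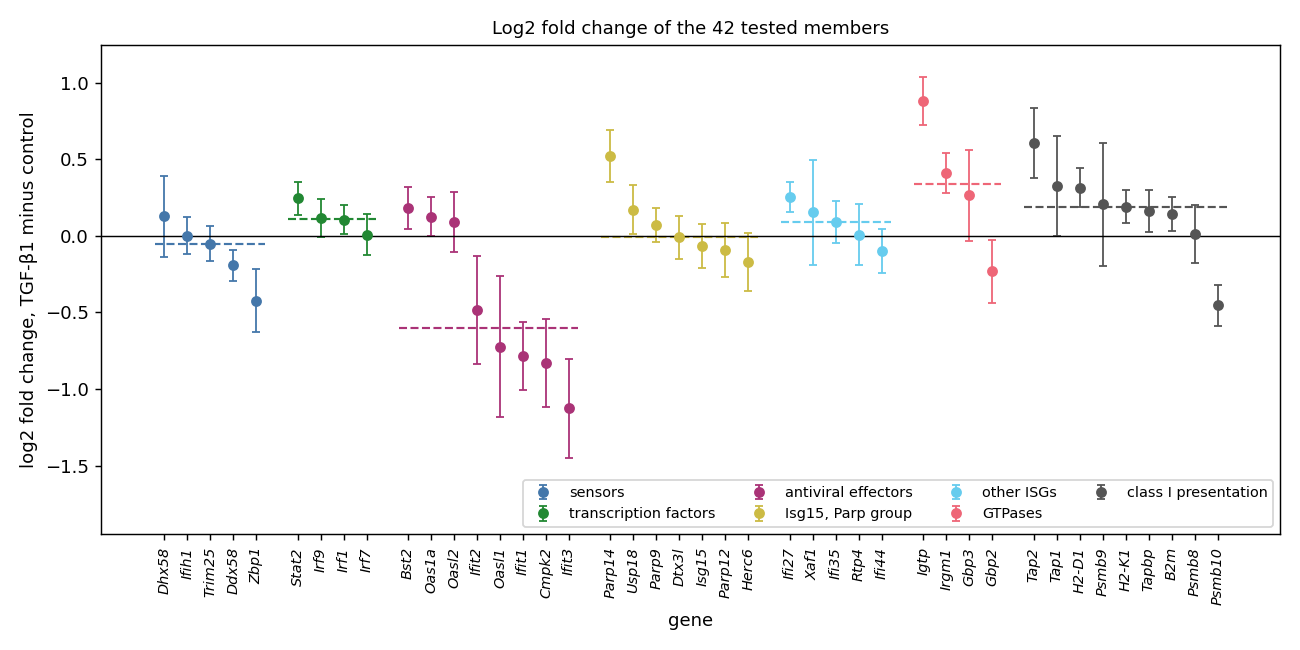
Log2 fold change (TGF-β1 minus control) of the 42 tested members, with the standard error of the limma fit as bars and the median of each list as a dashed line. The antiviral effectors reached the lowest values, down to -1.12 in Ifit3, the GTPases the highest, up to 0.88 in Igtp, and the class I genes lay between 0.61 in Tap2 and -0.45 in Psmb10.

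The antiviral and class I genes were then set side by side. The median log2 fold change was 0.0083 over 29 antiviral members and 0.19 over 9 class I members, a difference of -0.18, with -0.031 for all genes tested. Under the 75th percentile the difference was -0.064. On the control arrays the antiviral median, after subtracting the control mean of each gene, was 0.013, 0.051 and -0.08, and on the TGF-β1 arrays it was 0.0082, 0.061 and -0.028. These medians overlapped. For class I the same medians were 0.06, 0.18 and -0.032 and 0.21, 0.32 and 0.023, with the value of TGF-β1 replicate 3 inside the control range. The effectors alone had 0.16, -0.0069 and -0.11 on the control arrays and -0.40, -0.46 and -0.25 on the TGF-β1 arrays, which did not overlap. These are descriptions of lists chosen with the data known, and no test was made of them.

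**Figure D4:**
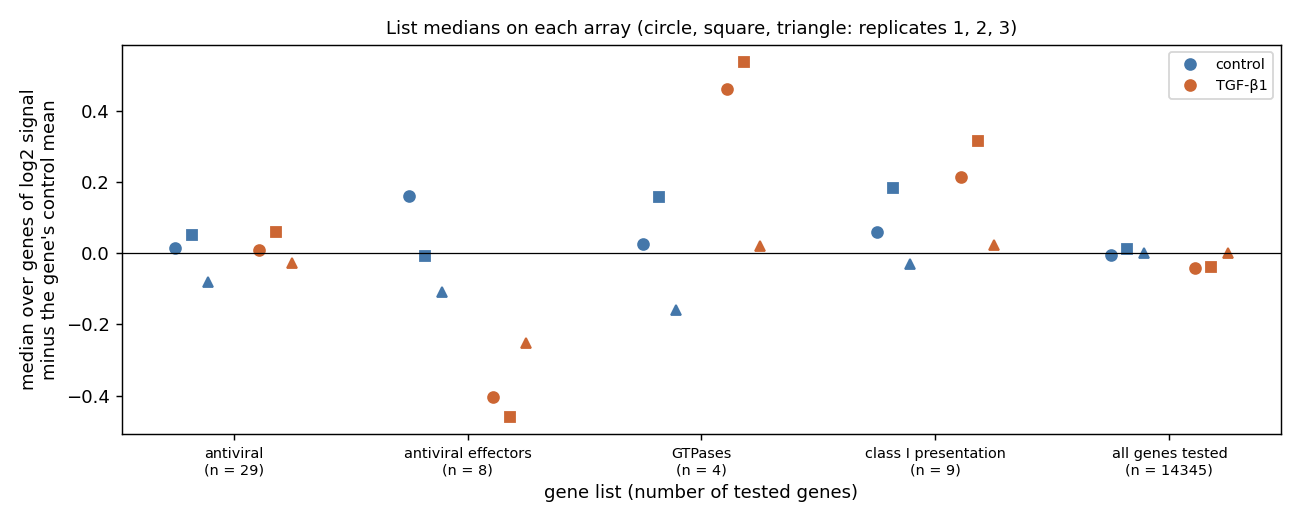
Median over the tested genes of each list of the log2 signal minus the gene's control mean (vertical axis), for each control and TGF-β1 array, with circles, squares and triangles for replicates 1, 2 and 3. The antiviral medians of both groups overlapped near 0, the effector medians were lower on all 3 TGF-β1 arrays, and the class I and GTPase medians of TGF-β1 replicate 3 lay within the control range.

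Without TGF-β1 replicate 3, 4 of the 42 members were higher at an adjusted p under 0.05 (Igtp, Parp14, Gbp3 and Tap1) and 1 was lower (Cmpk2). This was 9.52% and 2.38% of members, beside 9.07% and 6.26% of all genes. Within slide row 1, which holds replicates 1 and 2 of each group, the median log2 fold change was -0.083 for antiviral and 0.27 for class I genes. In slide row 2, with 1 array of each group, it was 0.09 and 0.04.

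The rest of the pathway, which was not part of the list, was read from the same fit. Of 8 interferon genes 2 were tested, Ifnk (0.15) and Ifnl3 (-0.18), and neither passed. Ifnb1 and Ifng, the genes of interferon beta and gamma, were well above background on none of the arrays. All 9 receptor chains and Janus kinases were tested and had positive log2 fold changes from 0.042 (Jak2) to 0.51 (Ifnar1, SE 0.13, adjusted p = 0.103), and none passed. The receptor chains Ifnar1 (0.61, adjusted p 0.0264) and Ifnar2 (0.55, adjusted p 0.0343) passed without TGF-β1 replicate 3. Under the 75th percentile Ifngr2, Ifnlr1 and Il10rb were below 0. Of 12 further signalling genes 1 passed. It was Irf5, a transcription factor of inflammatory genes, with 6.70, 7.01 and 6.92 on the control arrays and 7.53, 7.49 and 7.56 on the TGF-β1 arrays (log2 fold change 0.65 ± 0.12, adjusted p = 0.0479). The lowest was Myd88, an adaptor of Toll-like receptors, at -0.33 (SE 0.16, adjusted p = 0.277), and without TGF-β1 replicate 3 it was -0.49 (adjusted p 0.0381). Among 6 inhibitors of the pathway, Socs1, which blocks Janus kinases, was higher with 6.46, 6.91 and 6.80 on the control arrays and 7.73, 7.73 and 7.50 on the TGF-β1 arrays (log2 fold change 0.93 ± 0.15, adjusted p = 0.0357), and the lowest was Socs3 at -0.11 (SE 0.29, adjusted p = 0.834). Without TGF-β1 replicate 3 Socs1 was a DEG, at 1.01 (adjusted p 0.0162). The calls of Irf5 and Socs1 were lost when any 1 control array or TGF-β1 replicate 1 or 2 was left out. They were lost too with the replicate number as a block, with adjusted p-values of 0.108 and 0.0927, without the filter on dim probes and in the methods' t-test after adjustment. The call of Irf5 was also lost with a trended robust prior and with the slide row as a block.

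Of 16 further interferon-stimulated genes 0 passed, with 4 higher and 1 lower at an unadjusted p under 0.05. The shares of all genes there were 11.4% and 10.7%. Leaving out TGF-β1 replicate 3, 5 were higher at an adjusted p under 0.05, beside 9.07% of all genes, and these were Cxcl10, Ifi47, Ifitm3, Lgals3bp and Tor3a. The highest log2 fold change was in Cxcl10, a chemokine that attracts T cells, with 8.61, 9.12 and 9.91 on the control arrays and 11.73, 11.74 and 9.83 on the TGF-β1 arrays. TGF-β1 replicates 1 and 2 were far above the controls and replicate 3 was not (log2 fold change 1.89 ± 0.57, adjusted p = 0.145). Without replicate 3 it was 2.52 (adjusted p 0.0131). The lowest was Ifit3b, a near copy of Ifit3 whose RNA may bind the same probe, with 9.33, 9.24 and 8.11 on the control arrays and 7.78, 7.41 and 7.72 on the TGF-β1 arrays (log2 fold change -1.26 ± 0.33, adjusted p = 0.11). Ifi47, another immunity-related GTPase, was named after its values were seen, with 8.54, 8.99 and 8.60 on the control arrays and 9.52, 9.51 and 9.44 on the TGF-β1 arrays (log2 fold change 0.78 ± 0.14, adjusted p = 0.0506). All its TGF-β1 signals lay above the controls, as for Igtp and Irgm1.

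Of 19 further genes of class I presentation 0 passed, with 9 higher and 0 lower at an unadjusted p under 0.05, where all genes had 11.4% and 10.7%. Under the 75th percentile 3 were higher and 1 lower, where all genes had 9.65% and 13.8%, and the median fell from 0.28 to 0.12. The log2 fold change of H2-T23, a non-classical heavy chain, was 0.33 by quantiles and 0.12 by the 75th percentile. That of H2-Q4 was 0.52 and 0.25, and those of the chaperones Calr and Canx were 0.51 and 0.35 against 0.27 and 0.093. In the fit that left out TGF-β1 replicate 3, 5 genes were higher at an adjusted p under 0.05 (Cd1d1, H2-M3, Calr, Pdia3 and Tapbpl) and Rfxap was lower. With all arrays they ran from Rfxap, a subunit of a promoter-binding complex, at -0.34 (SE 0.22, adjusted p = 0.386) to Cd1d1, which presents lipids, at 1.15 (SE 0.26, adjusted p = 0.0886). When that array was left out these were -0.60 (adjusted p 0.0289) and 1.39 (adjusted p 0.0151). MHC class II genes present peptides from outside the cell, mainly in immune cells. Of 8 such genes 5 were tested and 0 passed, with 1 higher and 1 lower at an unadjusted p under 0.05. H2-Ab1 gave 4.94, 4.65 and 5.13 on the control arrays and 8.42, 7.61 and 6.35 on the TGF-β1 arrays. The treated arrays were all higher but differed widely among themselves (log2 fold change 2.55 ± 0.48, adjusted p = 0.0547), and with TGF-β1 replicate 3 left out it was 3.10 (adjusted p 0.00436). With normexp the log2 fold change of H2-Ab1 was 1.34. In the fit without that array, 4 of the 5 class II genes were DEGs, all higher, beside 706 of all 14345 genes. The others were Cd74, the invariant chain, at 1.5 (adjusted p 0.00927), H2-Eb1 at 1.56 (adjusted p 0.00926) and H2-DMb1 at 1.09 (adjusted p 0.0122). With all arrays these 3 were at 0.95, 0.78 and 0.71, with adjusted p-values of 0.272, 0.467 and 0.242. At the other end, H2-DMa was at -0.61 (SE 0.15, adjusted p = 0.103). Ciita, the activator of class II genes, and H2-Aa were well above background on none of the arrays.

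Markers of other cell types were read beside these results. The summed signal of the 15 leukocyte markers was 10646 to 12363 on control and 13653 to 14830 on TGF-β1 arrays, in linear units. Of these markers 5 passed the filter, and the highest log2 fold change was in Cd68, at 0.90 (SE 0.28, adjusted p = 0.147). Itgam was at 0.43, Fcer1g at 0.31, Csf1r at 0.01 and Cd3e at -0.24. All TGF-β1 signals of Cd68 and Itgam lay above the controls. The brightest were Csf1r, Itgam and Cd68, with control means of 12.33, 11.85 and 10.88, and these made up most of the summed signal. Ptprc, Laptm5, Tyrobp, Adgre1 and Itgax were well above background on none of the arrays. The 9 fibroblast markers summed to 580 to 650 on control and 708 to 2702 on TGF-β1 arrays. Of these 5 passed the filter, and Col3a1, Pdgfrb, Lum and Tcf21 were well above background on none of the arrays. Most of the sum came from Dcn, with log2 signals of 8.98, 8.81 and 8.96 on the control arrays and 11.10, 9.68 and 8.98 on the TGF-β1 arrays. All 5 that passed the filter had a positive log2 fold change, with a median of 2.07, which is the value of Col1a2. The collagen genes Col1a1 (2.33, adjusted p 0.0131) and Col1a2 (2.07, adjusted p 0.0162) were DEGs. Both were well above background on 0 control and 3 TGF-β1 arrays, so they passed the filter only through the TGF-β1 arrays. Their log2 fold changes were taken against controls at background. With normexp these 2 log2 fold changes were 0.47 and 0.43 and did not pass the test. Both calls were also lost when control replicate 1 or 2 or TGF-β1 replicate 2 was left out. With the replicate number as a block Col1a1 lost its call (adjusted p 0.0673) and Col1a2 kept it (adjusted p 0.0361). Thy1 was a DEG without TGF-β1 replicate 3, at 3.57 (adjusted p 0.0022), and not with it (2.47, adjusted p 0.176). The 7 endothelial markers summed to 766 to 850 and 847 to 1326, with 3 past the filter and Cdh5, Kdr, Tie1 and Tek on none. Of the 14 tested epithelial markers 1 was a DEG, Foxj1 of ciliated cells, at 1.47 (adjusted p 0.00239). Scgb1a1 of club cells was at -2.27 (adjusted p 0.158) and Krt5 of basal cells at 1.37 (adjusted p 0.178). Without TGF-β1 replicate 3, 3 epithelial markers were DEGs, Foxj1, Krt5 (1.90, adjusted p 0.0195) and Epcam (1.03, adjusted p 0.0178). The summed epithelial signal was 321011 to 360663 on control and 305714 to 437393 on TGF-β1 arrays. The part of these markers in the results for the members and for class II presentation was not tested.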

How the data were processed

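RNA of 3 control and 3 TGF-β1-treated 2D-MAO cultures was measured on 6 single-colour arrays. The authors deposited the intensity of each spot on a linear scale, background-subtracted and detrended by Agilent Feature Extraction (version 11.0.1.1, per the submitters' processing notes) and not normalised between arrays, with flags for spots well above background. Control spots and spots flagged as uneven or outliers were left out, and 56599 of 56605 probes remained. RefSeq accessions gave a gene symbol for 32991 probes (58.3%) through a table of GRCm38.p6.

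Log2 signals were quantile-normalised, as in the study's methods. A probe was tested when well above background on at least 3 of 6 arrays (32460 probes), and the brightest such probe stood for its gene. Groups were compared with limma 3.58.1 in R 4.3.3, without covariates and with Benjamini-Hochberg adjustment. A member that was well above background on no array of a group would be given as a bound, but in no such member (Rsad2, Gbp7, Nlrc5) did the bound exceed 1. The number of arrays limits the precision. The study's methods name an unpaired test without adjustment, which was run as an alternative.

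The members and gene lists were chosen with earlier results of these data known. Values on each array are given for every tested member. Of the pathway lists, the highest and the lowest log2 fold change and any gene with an adjusted p under 0.05 are named, and Ifi47, H2-T23, H2-Q4, Calr, Canx and genes past that threshold without TGF-β1 replicate 3 were added after their values were seen. The other pathway genes enter the counts and medians of their lists, apart from 1 gene that is not reported here. Alternatives were 75th percentile scaling, background correction of the median brightness by normexp (offset 50), other filters on dim probes, the mean of a gene's probes, a trended robust prior, array weights, replicate number or slide row as a block, each array left out, and the methods' t-test. The steps were tested on simulated data. Promoter windows were searched in Python 3.11.15, and figures were drawn with matplotlib 3.10.9.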

Additional observations from a re-analysis of the deposited data

How the results depend on the processing

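Over 17 alternatives and the 42 tested members, 713 values were computed, and 682 kept their direction and their side of the threshold. The 7 that lost a call were all of Igtp, 22 values of other members gained one, and 2 turned: Irf1 was -0.13 with the mean of its probes and B2m -0.13 under the 75th percentile. A direction was not assigned to values smaller than their standard error, of which 36 changed sign. For 39 other pathway and marker genes, 559 of 661 values kept their side, 31 lost a call (Irf5, Socs1, Col1a1 and Col1a2), 71 gained one and 0 turned. The count of members with an adjusted p under 0.05, 1 with the settings given above, was 0 without the filter, 11 with array weights, 0 with the replicate block, 2 with the slide row block (Igtp and Tap2), 0 and 7 with the adjusted and the unadjusted methods' t-test, and 0 to 5 with 1 array left out (5 without TGF-β1 replicate 3, 2 without control replicate 3 and 0 without any of the others). The 11 members with array weights were 26.2% of members, beside 34.7% of all genes in that fit, the 7 of the unadjusted t-test 16.7% beside 17.1%, the 2 with the slide row block 4.76% beside 2.75%, and the 5 without TGF-β1 replicate 3 11.9% beside 15.3%. Members called as DEGs were 2 with array weights and 0 to 1 with 1 array left out. The antiviral median ranged from -0.095 to 0.062 with 1 array left out. The class I median was 0.043 under the 75th percentile and ranged with 1 array left out from 0.098, where TGF-β1 replicate 2 was dropped, to 0.25, and the antiviral minus class I difference was -0.064 there and -0.30 to -0.12 with 1 array left out. The other alternatives left these medians within 1 SD of the array medians.

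Over all genes, 171 DEGs were higher and 27 lower. DEGs higher were 49 without the filter, 594 with array weights, 85 with the replicate block, 4 and 312 with the adjusted and unadjusted t-test of the methods, and 48 to 550 with 1 array left out. DEGs lower were 16 with normexp, 11 without the filter, 213 with array weights, 45 with the slide row block, 1 and 76 with the adjusted and unadjusted t-test of the methods, and 7 to 156 with 1 array left out. Of the counts with 1 array left out, the highest in both directions came without TGF-β1 replicate 3, and leaving out control replicate 3 kept the number of higher DEGs within 1.5 times. The causes were not tested. The deviations of same-numbered arrays from their group means correlated at -0.0079, 0.33 and -0.047, so that replicate numbers were not taken to pair the cultures, and with the replicate block Igtp had an adjusted p of 0.0755. The dimmest members, such as Oasl1, Dhx58 and Gbp3, were less than 2 times their local background on at least 1 array, and small differences were not detectable in them.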
